A study of Mus musculus with 192 samples.

Results

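The comparison described here is that of hemizygous (HEM) with nontransgenic (NON) L44 mice at T3, for brains collected in the morning (AM), in the midbrain, left cortex and right cortex. It held every pool that the labels place in those groups, 4 HEM and 3 NON pools in each region, 21 of the 192 pools of the series, and all 43 target genes were kept. Line 44 (L44) mice carry a gene for triprolyl-human amylin, a form of the islet hormone amylin that does not form amyloid, behind the rat insulin 2 promoter, which is active in the β-cells of the pancreas. The line was made on the FVB/n background. HEM mice have the transgene from 1 parent, NON mice do not carry it and were littermates from HEM by HEM matings or, where there were none, mice of the same age from other litters, and homozygous (HOM) mice have it from both parents. All mice were male and were fed standard chow.

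T3 is the post-diabetic stage. The HEM mice were 400 to 407 days old, and the NON mice 400 to 405 days (400 to 404 in the left cortex). A pool was RNA of 1 or 2 mice, so that the 4 HEM pools (1, 2/3, 4/5 and 6) came from 6 mice and the 3 NON pools (3/4, 7 and 10, or 3/4, 7 and 11 in the left cortex) from 4. Of these, HEM pools 2/3 and 6 and NON pool 7 were labelled as previously diabetic and the others as never diabetic. The pools of the different regions came from the same mice where they have the same number and genotype, so the 3 regions are not independent of each other. NON mice were bred from HEM parents, which the authors say may have affected the offspring.

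Amylin is released with insulin from the β-cell and acts in the brain on the calcitonin receptor, whose partner proteins, the receptor activity modifying proteins (Ramp), turn it into an amylin receptor. Insulin acts through its receptor (Ir) and the receptor substrates on phosphoinositide-3 kinase, Akt and the kinases and transcription factors behind them. Leptin acts through the long receptor form, the kinase Jak2 and the transcription factor Stat3, with Socs3 as an inhibitor. In the hypothalamus these hormones reach neurons that make Pomc and Cart, which lower food intake, or Npy and Agrp, which raise it.

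Probe counts were scaled to 3 reference genes. A normalised count is a gene's count relative to the reference genes of its pool (their geometric mean), brought back to the usual level of those genes in that region, so that normalised counts of different regions are on different scales. Target gene counts summed to 144251 to 235322 in the HEM and 232959 to 249654 in the NON midbrain pools. The sums were 74587 to 212110 and 90540 to 151941 in the left cortex, and 113393 to 264292 and 131822 to 179716 in the right cortex. Background was set for each pool from its 8 negative control probes, at 2 SD above their mean. It was 12.5 to 21.5 counts in HEM and 28.0 to 29.997 in NON midbrain pools, 9.07 to 23.1 over the left cortex pools and 17.1 to 27.7 over the right cortex pools. A p-value below sets a difference against the spread between such pools of mice. That spread was estimated over all stages, genotypes and collection times of a region (45 or 46 pools), unless another fit is named.

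Midbrain pools of the 2 genotypes stood apart in their control probes. The geometric mean of the positive control probes, which are added to the assay in fixed amounts, was 390 to 614 counts in HEM and 736 to 860 in NON. For the reference genes this mean was 3624 to 6003 in HEM and 6015 to 6756 in NON. Neither range overlapped with that of the other genotype, although HEM pool 1 was close to NON pool 7 in the second. In the left and right cortex both measures overlapped between HEM and NON. The part that these control probe levels have in the midbrain differences below was not tested.

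**Figure D1:**
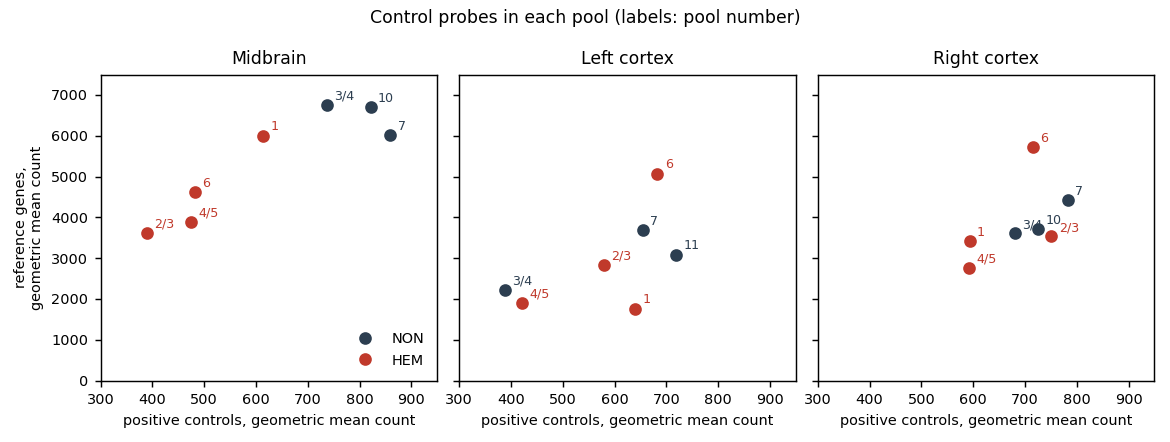
Geometric mean count of the 3 reference genes (vertical axis) against that of the 6 positive control probes (horizontal axis) for each HEM and NON pool, labelled with its pool number, in each region. In the midbrain all HEM pools lie to the left of all NON pools, at up to 614 counts against 736 or more, whereas the genotypes are mixed in both cortices.

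The region labels were checked with hypothalamic neuron markers (Pomc, Agrp, Hcrt, Mch and Hdc). The dissected midbrain included the forebrain and hypothalamus, and its raw counts of Mch, the melanin concentrating hormone of lateral hypothalamic neurons, were 13036 to 26998. Mch gave 12 to 64 raw counts in the left cortex and 35 to 161 in the right cortex. Hcrt, which encodes orexin, gave 373 to 1031 raw counts in the midbrain and was at or under background in all 7 left cortex pools. The summed normalised count of the 5 markers was 15584 to 26762 in HEM and 18792 to 27783 in NON midbrain pools, with Mch the most abundant, and these ranges overlapped. The left cortex had 131 to 263 in HEM and 228 to 260 in NON. The right cortex had 305 to 393 in HEM and 184 to 304 in NON, so all HEM pools lay above all NON pools, HEM pools 1 and 4/5 by little. The 3 β-cell markers Amylin, Ins1 and Ins2 were all at or under background in every cortex pool, and their summed normalised count in the midbrain was 59.9 to 80.4 in HEM and 72.1 to 81.3 in NON.

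In the midbrain, 6 of the 43 genes (14.0%) rose in HEM and none fell, in edgeR's quasi-likelihood test at an adjusted p under 0.05. The 6 were Pde3b, Pdk1, Jak2, Adrbk1, Pik3ca and Gsk3a, and their log2 fold-changes were 0.15 to 0.35, that is 10.8% to 27.2% above NON. At an unadjusted p under 0.05 there were 11 genes (25.6%), all higher in HEM. In 10 genes (23.3%) the lowest HEM pool exceeded the highest NON pool, and in none was it the other way round. None of the 6 passed the study's limit of 1 on the log2 scale, or a limit of 0.58 (1.5-fold). Over the panel, 30 of 43 log2 fold-changes were above 0 and 13 below, with a median of 0.11, so that the 6 genes were 0.04 to 0.24 above that median.

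Pde3b encodes phosphodiesterase 3B, which breaks down cyclic AMP and is switched on by insulin and leptin signalling. Its normalised counts in the midbrain were 2641, 2412, 2423 and 2417 in HEM pools 1, 2/3, 4/5 and 6, and 1995, 2206 and 2054 in NON pools 3/4, 7 and 10. The HEM pools lay close together except pool 1, and all were above the highest NON pool. The log2 fold-change was 0.25 (SE 0.06, adjusted p = 0.0040 by edgeR), from 2473 ± 112 in HEM (SD, n = 4) and 2085 ± 109 in NON (SD, n = 3).

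The Pdk1 probe had the highest fold-change among the 6. Its normalised counts were 6372, 7427, 6628 and 6500 in the HEM pools, in the same order, and 5436, 5348 and 5087 in the NON pools. HEM pool 2/3 was the highest and there was no overlap. The log2 fold-change was 0.35 (SE 0.09, adjusted p = 0.0113 by edgeR). The study lists the gene as 3-phosphoinositide dependent kinase-1, the kinase that activates Akt, whereas the transcript that the deposited counts give for the probe belongs in RefSeq to Pdk1, pyruvate dehydrogenase kinase 1, which slows the entry of pyruvate into the citric acid cycle. The symbol is used here as the counts give it.

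Jak2, the kinase attached to the leptin receptor, had 14488, 13409, 15178 and 14869 normalised counts in the HEM midbrain pools and 11761, 12533 and 12246 in the NON pools. Again the groups did not overlap. Its log2 fold-change was 0.25 (SE 0.07, adjusted p = 0.0185 by edgeR). Adrbk1 encodes a kinase that phosphorylates G protein-coupled receptors once they are activated and so turns them off. It had 8280, 7333, 7422 and 6775 normalised counts in HEM and 6529, 6904 and 6188 in NON, and HEM pool 6 lay below NON pool 7. The log2 fold-change of Adrbk1 was 0.19 (SE 0.06, adjusted p = 0.0221 by edgeR).

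Pik3ca, the catalytic subunit of phosphoinositide-3 kinase, had 15766 to 16863 normalised counts in HEM and 14400 to 15223 in NON midbrain pools. Gsk3a, a kinase that insulin signalling inhibits, had 22744 to 24312 in HEM and 20864 to 21612 in NON. Neither gene overlapped between the genotypes, and their log2 fold-changes were the smallest of the 6 genes, at 0.15 (SE 0.05) and 0.16 (SE 0.05). Of the remaining genes with the 10 smallest p, Ramp2, Pik3r1, Lepr and mTor had log2 fold-changes of 0.22, 0.14, 0.20 and 0.12, with adjusted p of 0.0786, 0.0786, 0.0847 and 0.0918 in the same edgeR test.

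These calls moved with the scaling and with single pools. With TMM, which scales to a trimmed mean over the 43 genes, the panel median was 0.02 and no midbrain gene passed the test (6 at an unadjusted p under 0.05). Scaling to the positive control probes put it at 0.30, and 26 genes passed, all higher in HEM, and without the reference gene B2m none passed (8 at an unadjusted p under 0.05). Leaving out NON pool 7 gave 10 genes. Leaving out HEM pool 4/5 or NON pool 3/4 gave 2, and leaving out HEM pool 1 gave 3. Without NON pool 10 there were 4, among them Hcrt, which was lower in HEM and is named after its values were seen. Pde3b and Pdk1 kept an adjusted p under 0.05 whichever of the 7 pools was left out.

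**Figure D2:**
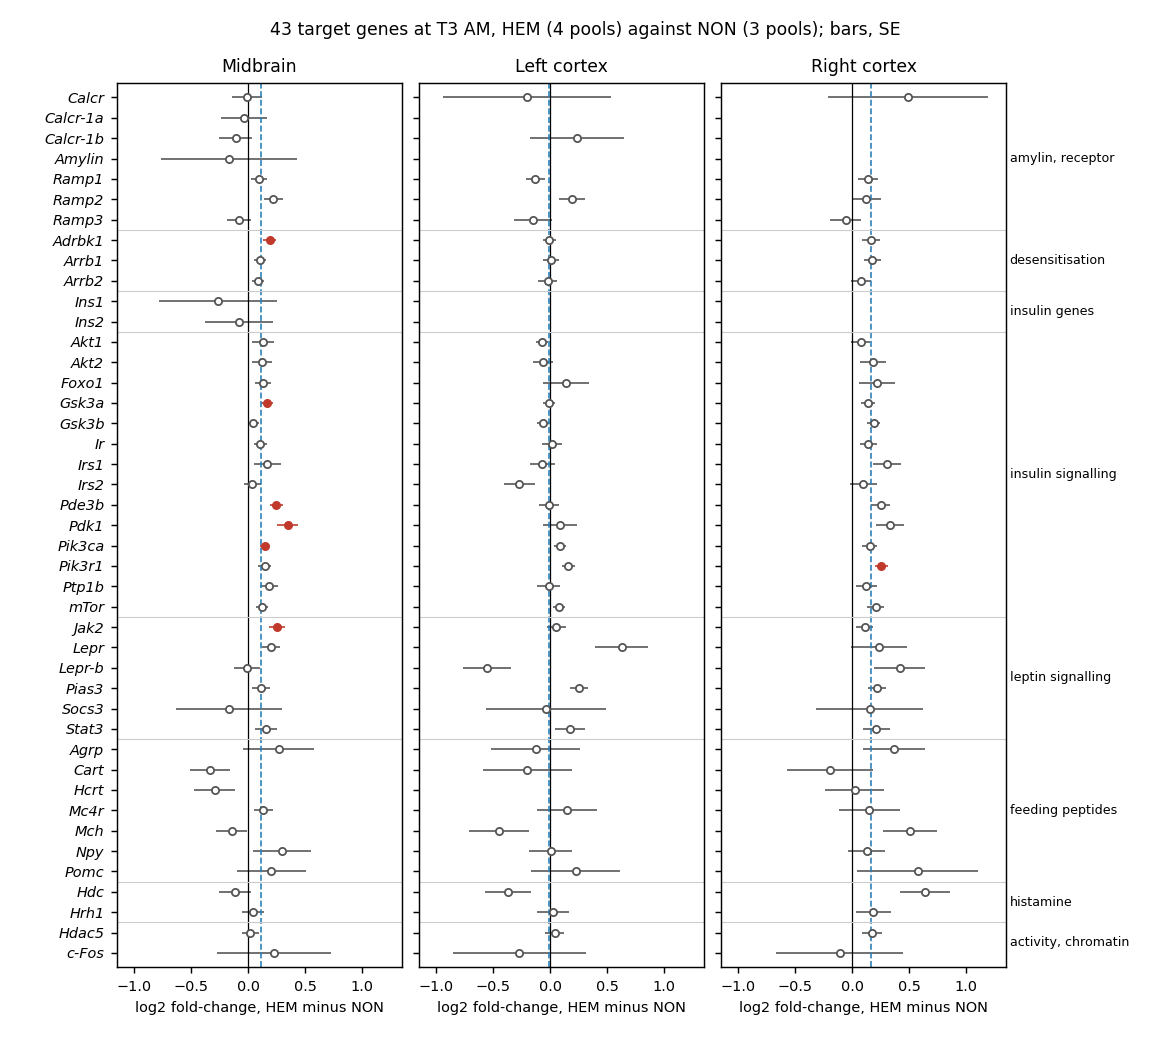
Log2 fold-change of HEM against NON at T3 AM for each target gene (rows, grouped by role) in each region, with bars of 1 SE derived from the edgeR test. Filled red points had an adjusted p under 0.05, the dashed line is the median of the 43 genes (0.11, -0.01 and 0.16), and no point is drawn for a gene at or under background in all 7 pools. Filled points are 6 midbrain genes and Pik3r1 in the right cortex.

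In the right cortex, 1 of the 43 genes (2.33%) rose and none fell. It was Pik3r1, which encodes the regulatory subunit that holds and steadies the catalytic subunit of phosphoinositide-3 kinase. Normalised counts were 12587, 12732, 11637 and 12164 in HEM pools 1, 2/3, 4/5 and 6 and 10575, 10615 and 9658 in NON pools 3/4, 7 and 10. The lowest HEM pool was above the highest NON pool. The log2 fold-change was 0.26 (SE 0.06, adjusted p = 0.0059 by edgeR), with means of 12280 ± 492 (SD, n = 4) and 10283 ± 541 (SD, n = 3).

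Pik3r1 was also the only gene of the 43 whose HEM pools lay above all NON pools in each of the 3 regions. Left cortex pools had 10502, 10596, 10567 and 10198 normalised counts in HEM and 9026, 9927 and 9192 in NON pools 3/4, 7 and 11 (log2 fold-change 0.16, SE 0.06, adjusted p = 0.158 by edgeR). In the midbrain it had 7384, 7338, 6966 and 6952 in HEM and 6155, 6950 and 6322 in NON pools 3/4, 7 and 10. HEM pool 6 and NON pool 7 of the midbrain were nearly level. Since the 3 regions came largely from the same mice, the repetition is a description of these mice.

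RefSeq gives 2 transcription starts for Pik3r1 in mouse build GRCm38.p6. The 250 bases before each are shown because Pik3r1 passed the test in the right cortex and its genotypes did not overlap in any region, at chr13:101768218-101768467 and chr13:101692631-101692880, both on the minus strand and written 5′ to 3′. Capitals mark the GC box GGGCGG, or CCGCCC on the other strand.
Pik3r1, start 1: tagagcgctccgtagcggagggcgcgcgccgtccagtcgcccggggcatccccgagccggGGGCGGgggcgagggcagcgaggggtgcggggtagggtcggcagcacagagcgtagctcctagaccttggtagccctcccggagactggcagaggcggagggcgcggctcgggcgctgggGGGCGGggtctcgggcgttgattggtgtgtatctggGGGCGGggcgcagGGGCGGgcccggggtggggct
Pik3r1, start 2: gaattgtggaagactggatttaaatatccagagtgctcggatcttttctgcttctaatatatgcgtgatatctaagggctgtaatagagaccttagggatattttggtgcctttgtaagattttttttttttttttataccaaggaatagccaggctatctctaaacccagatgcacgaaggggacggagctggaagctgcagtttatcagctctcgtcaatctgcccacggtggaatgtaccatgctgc

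The first window of Gsk3a, Pdk1 and Pik3ca held 1 GC box each. The window before start 1 of Pik3r1 held 4 GC boxes in 76.4% G and C, and that before start 2 held none in 42.4%. Of the 7 genes that passed the test in some region, 5 were matched to such windows in the RefSeq table used here, and 7 windows were searched. Those of Adrbk1 (Grk2 in RefSeq) and Pde3b were not analysed here. The window of Jak2, the leptin receptor kinase, had 2 GC boxes in 80.8% G and C, at chr19:29251553-29251802 on the plus strand.
Jak2: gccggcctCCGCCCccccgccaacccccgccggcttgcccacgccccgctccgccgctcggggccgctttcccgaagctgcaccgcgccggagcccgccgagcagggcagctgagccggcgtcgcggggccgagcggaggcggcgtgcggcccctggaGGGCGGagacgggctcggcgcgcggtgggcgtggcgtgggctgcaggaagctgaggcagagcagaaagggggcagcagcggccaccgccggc
The GC box stood in 32.7% of all 32851 windows of this length. The E-box CACGTG (6.02% of windows), the cyclic AMP response element TGACGTCA (1.55%) and the forkhead box O element GTAAACA (3.17%), searched on both strands, were in none of the 7 windows. A match, or its absence, describes the letters only.

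Other right cortex genes with small p were Gsk3b, Pde3b, Hdc, mTor, Pias3, Pdk1, Irs1, Pik3ca and Arrb1, all higher in HEM, with adjusted p of 0.065 to 0.106. At an unadjusted p under 0.05 there were 12 genes (27.9%), all higher. The genotypes did not overlap in 8 genes (18.6%), with HEM above NON in 7 (16.3%) and below in Amylin, which was at or under background in all 7 pools. These 7 included Pde3b, mTor and Pik3r1, which were also without overlap in the midbrain. The panel median was 0.16 and 36 of 43 log2 fold-changes were above 0, with Pik3r1 0.10 above that median.

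Hdc, histidine decarboxylase, which makes histamine, had the highest right cortex fold-change. Its normalised counts were 83.0, 78.4, 55.9 and 105 in the HEM pools and 55.4, 53.9 and 48.7 in the NON pools, at raw counts of 24 to 93. The lowest HEM pool, 4/5, was just above the NON pools. The log2 fold-change was 0.64 (SE 0.22, adjusted p = 0.0767 by edgeR). Its value was -0.37 (SE 0.20) in the left cortex and -0.11 (SE 0.14) in the midbrain. All 5 hypothalamic markers, Hdc among them, had right cortex log2 fold-changes above 0, as did 36 of all 43 genes. Their median was 0.51, next to 0.16 over the panel. Of the 5, 2 had an unadjusted p under 0.05 by edgeR, Hdc included, next to 12 of all 43 genes (27.9%). Agrp and Hcrt, which are counted in the 5 and in their median, were at or under background there in 3 HEM and all 3 NON pools.

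NON pool 10 was low across the panel in the right cortex, where it was the lowest of the 7 pools in 28 of 43 genes. Without it, no right cortex gene passed the test (3 at an unadjusted p under 0.05), and the log2 fold-change of Pik3r1 was 0.21. Without HEM pool 4/5 there were 10 genes and without NON pool 7 there were 6. The panel median was 0.11 without NON pool 10. It was 0.10 without HEM pool 6, with 30 of 43 log2 fold-changes above 0. Without HEM pool 6, 7 genes had an unadjusted p under 0.05. No right cortex gene passed with TMM, which brought the panel median to 0.01, with the positive control probes, at a median of 0.28, or without B2m. There were 1, 1 and 8 genes at an unadjusted p under 0.05 in these 3 fits.

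**Figure D3:**
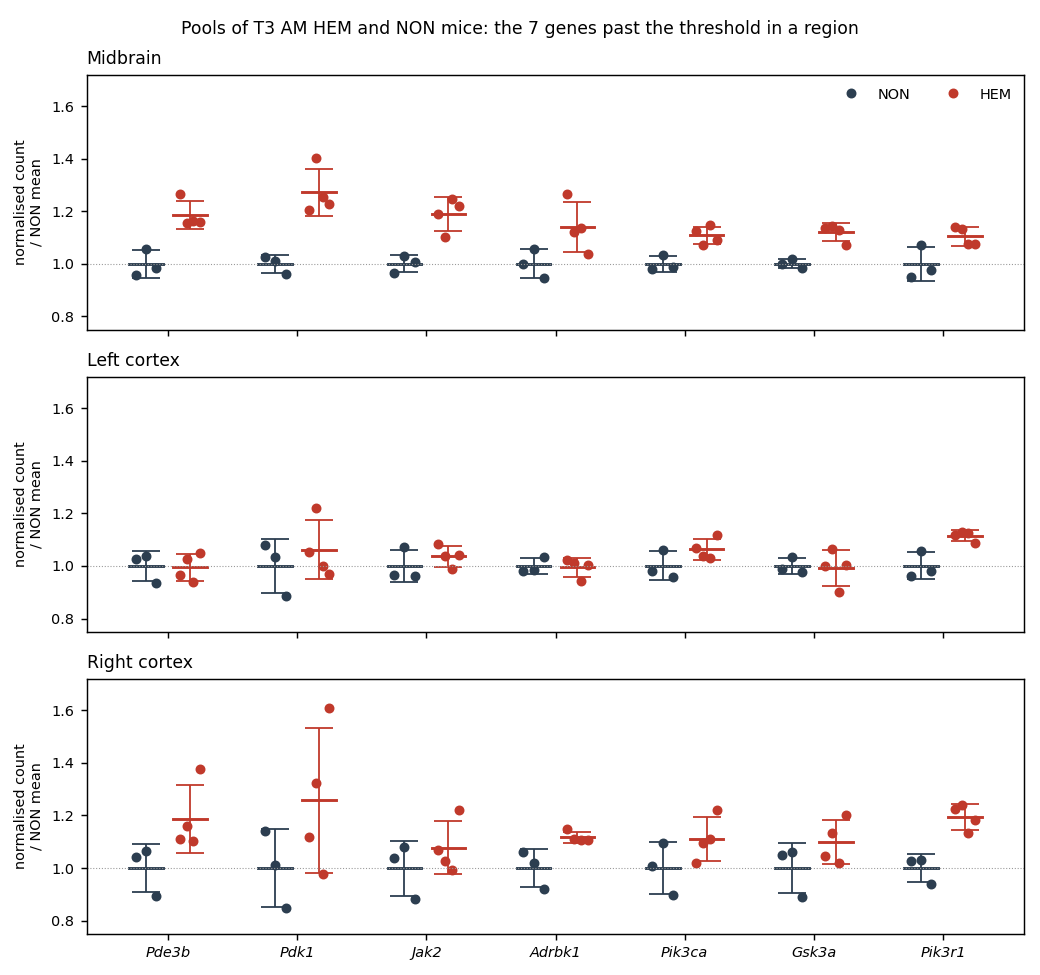
Normalised count of each pool divided by the NON mean of the region (vertical axis) for the 7 genes with an adjusted p under 0.05 in any region, with horizontal lines for means and bars of 1 SD (HEM, n = 4; NON, n = 3). HEM pools of Pik3r1 lie above all NON pools in each panel, and the left cortex panel shows overlap for the other 6 genes.

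In the left cortex, none of the 43 genes (0%) passed the same edgeR test, the lowest adjusted p being 0.136. At an unadjusted p under 0.05 there were 4 genes (9.30%), of which Pias3, Pik3r1 and Lepr (6.98%) were higher and Lepr-b (2.33%) was lower in HEM. DESeq2 also called none. The panel median was -0.01, and 20 of 43 values were above 0. In 4 genes (9.30%) all HEM pools lay above all NON pools, namely Lepr, Pias3, Pik3r1 and Stat3, the last chosen after its values were seen, and in Lepr-b (2.33%) they lay below, 5 genes in all (11.6%).

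Pias3 encodes an inhibitor of Stat3. In the left cortex it had 1283, 1465, 1322 and 1308 normalised counts in HEM pools 1, 2/3, 4/5 and 6 and 1075, 1146 and 1164 in NON pools 3/4, 7 and 11. The log2 fold-change was 0.25 (SE 0.08, adjusted p = 0.136 by edgeR), next to 0.21 (SE 0.08) in the right cortex and 0.11 (SE 0.08) in the midbrain.

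The 2 leptin receptor probes went opposite ways in the left cortex. Lepr, which does not single out a receptor form by its name, had 1054, 704, 694 and 612 normalised counts in the HEM pools and 589, 470 and 425 in the NON pools. HEM pool 1 stood above the others. Lepr-b, the long form that signals through Jak2 and Stat3, had 33.2, 26.3, 39.0 and 30.5 in HEM and 52.9, 47.7 and 39.7 in NON, where HEM pool 4/5 and NON pool 11 were nearly level. The log2 fold-change was 0.63 (SE 0.23) for Lepr and -0.55 (SE 0.21) for Lepr-b, with adjusted p of 0.158 and 0.197 by edgeR. The raw counts of Lepr-b were 11 to 33, and 1 HEM pool was at or under background. After subtraction of the negative control mean, Lepr-b was the 1 left cortex gene that passed.

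**Figure D4:**
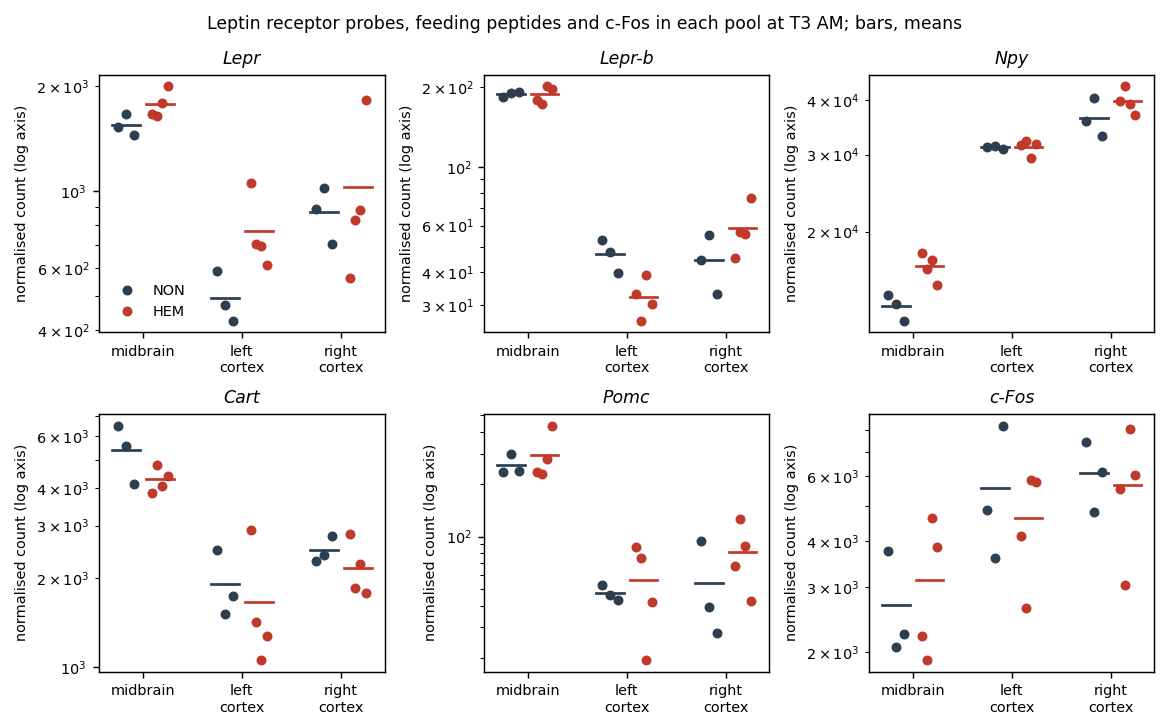
Normalised counts (log axis) of the leptin receptor probes, of Npy, Cart and Pomc, and of c-Fos in each HEM and NON pool at T3 AM, by region, with lines for group means. Each region has its own scale; in the left cortex all HEM pools lie above the NON pools for Lepr and below them for Lepr-b, and c-Fos and Pomc overlap in all 3 regions.

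Genes of amylin reception did not pass the test in any region, at 0 of 7 probes (Amylin, Calcr, Calcr-1a, Calcr-1b and Ramp1 to Ramp3), next to 6, 0 and 1 of all 43 genes (14.0%, 0% and 2.33%) in the midbrain, left and right cortex. Their median log2 fold-change in the midbrain was -0.04, next to 0.11 over all 43 genes. Leaving out the genes at or under background in all 7 pools, it was -0.13 over 5 of the probes in the left cortex and 0.13 over 4 in the right cortex, next to -0.01 and 0.17 over the 38 genes kept in each. In the midbrain the median of all 7 probes was -0.13 with TMM and 0.13 with the positive control probes. With the latter, Ramp1 and Ramp2 passed the test in the midbrain, next to 26 of all 43 genes. Calcr, Calcr-1a and Calcr-1b are probes of 1 gene, the calcitonin receptor. In the midbrain Calcr had 530, 790, 830 and 797 normalised counts in HEM and 681, 786 and 754 in NON, with a log2 fold-change of -0.01 (SE 0.13). In the cortices its raw counts were 4 to 25, at or under background in 5 of 7 left and 6 of 7 right cortex pools. Calcr-1b in the midbrain was 118 to 146 in HEM and 131 to 147 in NON, which overlapped.

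Amylin (listed as Iapp) was at or under background in 5 of 7 midbrain pools and in all cortex pools, so no fold-change is given for the cortices. The authors could not tell expression of the endogenous gene from that of the transgene. Ins1 was at or under background in 6 of 7 midbrain pools and all cortex pools, and Ins2 in 2 of 7 and all.

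Genes that turn receptors off (Adrbk1, Arrb1 and Arrb2, a receptor kinase and the β-arrestins) passed the test in 1 of 3 cases in the midbrain, Adrbk1 given above, next to 6 of 43 (14.0%) over the panel, and in none in the cortices, next to 0 of 43 (0%) in the left and 1 of 43 (2.33%) in the right cortex. Insulin signalling genes rose in 4 of 14 cases in the midbrain (Gsk3a, Pde3b, Pdk1 and Pik3ca; 3 of 13 without Pdk1), in 1 of 14 in the right cortex (Pik3r1) and in 0 of 14 in the left cortex. None fell. These counts stand beside 6, 1 and 0 of all 43 genes (14.0%, 2.33% and 0%). All 14 values were above 0 in the midbrain and right cortex, where 30 and 36 of all 43 were, and 6 of 14 in the left cortex, where 20 of 43 were. Their medians were 0.14, 0.18 and -0.01 in the midbrain, right cortex and left cortex, next to 0.11, 0.16 and -0.01 over the panel. With TMM, 12 of 14 midbrain values and 8 of 14 right cortex values were above 0.

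Of the 6 genes of leptin signalling, Jak2 rose in the midbrain, 1 of 6 next to 6 of 43 (14.0%) over the panel, and none passed in the cortices, next to 0 of 43 (0%) in the left and 1 of 43 (2.33%) in the right. Socs3, the inhibitor of leptin signalling, was low in all regions, at 29 to 74, 17 to 68 and 32 to 76 raw counts in the midbrain, left and right cortex. Its log2 fold-changes were -0.16 (SE 0.47), -0.04 (SE 0.52) and 0.15 (SE 0.47), and its genotype ranges overlapped in all 3. The 95% intervals were -1.11 to 0.78 in the midbrain, -1.11 to 1.03 in the left cortex and -0.80 to 1.11 in the right cortex, so that a change past the study's limit of 1 lay within each of them, as a fall in the midbrain, a rise in the right cortex and either way in the left cortex.

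None of the 7 feeding genes (Pomc, Cart, Npy, Agrp, Hcrt, Mch and Mc4r) passed in any region, where 6, 0 and 1 of all 43 genes (14.0%, 0% and 2.33%) did in the midbrain, left and right cortex. Npy, which raises food intake, had 17852, 16393, 17256 and 15088 normalised counts in HEM and 14357, 13692 and 12514 in NON midbrain pools. The groups did not overlap, but the log2 fold-change of 0.30 had an SE of 0.25 (adjusted p = 0.423 by edgeR) in the fit over all groups of the region. The value was 0.00 (SE 0.19) in the left and 0.13 (SE 0.16) in the right cortex. Cart, an appetite-lowering peptide, had 3870, 4796, 4078 and 4422 in HEM and 6514, 5545 and 4144 in NON midbrain pools, where NON pool 10 fell among the HEM pools. Its log2 fold-change was -0.33 (SE 0.17, adjusted p = 0.202 by edgeR), and it was -0.20 in both cortices (SE 0.39 and 0.37). With 1 pool left out it was -0.49 to -0.18 in the midbrain and -0.35 to -0.11 in the right cortex. In the left cortex it was -0.60 to 0.033, and its direction turned in 1 of these fits.

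Pomc, the precursor of the appetite-lowering melanocortin, was 236, 229, 279 and 434 in HEM and 234, 297 and 237 in NON midbrain pools. HEM pool 6 was the highest and the others overlapped with NON. Its log2 fold-changes were 0.20 (SE 0.31), 0.23 (SE 0.39) and 0.58 (SE 0.53) in the midbrain, left and right cortex, with adjusted p of 0.684 or more in the first 2 and 0.473 in the right cortex by edgeR. The right cortex value rested on raw counts of 16 to 69 and was 0.27 without HEM pool 2/3 or NON pool 10 and 1.23 without NON pool 3/4.

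c-Fos, a marker of recently active neurons, spread widely within each genotype. Normalised counts in the midbrain were 2207, 1903, 4628 and 3850 in HEM and 3762, 2064 and 2233 in NON. Left cortex pools had 4134, 2634, 5875 and 5809 in HEM and 4861, 3597 and 8249 in NON. Right cortex pools had 5530, 3048, 8083 and 6072 in HEM and 7439, 4817 and 6168 in NON. HEM pool 4/5 was the highest and HEM pool 2/3 the lowest of the HEM pools in every region. The log2 fold-changes were 0.23 (SE 0.50), -0.27 (SE 0.58) and -0.11 (SE 0.55), none past the test. Hdac5 and Hrh1 did not pass in any region.

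Previous diabetes split the HEM pools evenly. Between never diabetic pools (2 HEM and 2 NON), 5 midbrain genes rose, namely Adrbk1, Irs1, Jak2, Pde3b and Pik3ca, the second chosen after its values were seen, and none passed in either cortex. Between the 2 previously diabetic HEM pools and all 3 NON pools, 1 midbrain gene passed (Pdk1) and 12 right cortex genes did, all higher, and none did in the left cortex. With previous diabetes as a covariate no gene passed in any region (10, 3 and 3 at an unadjusted p under 0.05 in the midbrain, left and right cortex). The log2 fold-change of Pdk1 in the right cortex was 0.55 (SE 0.13) with the previously diabetic and 0.08 (SE 0.14) between never diabetic pools. That of Pik3r1 in the right cortex was 0.28 (SE 0.07) and 0.26 (SE 0.08), and that of Pde3b in the midbrain 0.21 (SE 0.07) and 0.32 (SE 0.07). The difference between these estimates was not tested.

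The size of the fold-changes depended on the scaling. TMM lowered the midbrain values and the right cortex values relative to the reference genes, and the positive control probes raised both. The share of values above 0 was 30, 26 and 40 of 43 in the midbrain and 36, 22 and 39 of 43 in the right cortex with the reference genes, TMM and the positive control probes. Left cortex shares were 20, 17 and 11 of 43.

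**Figure D5:**
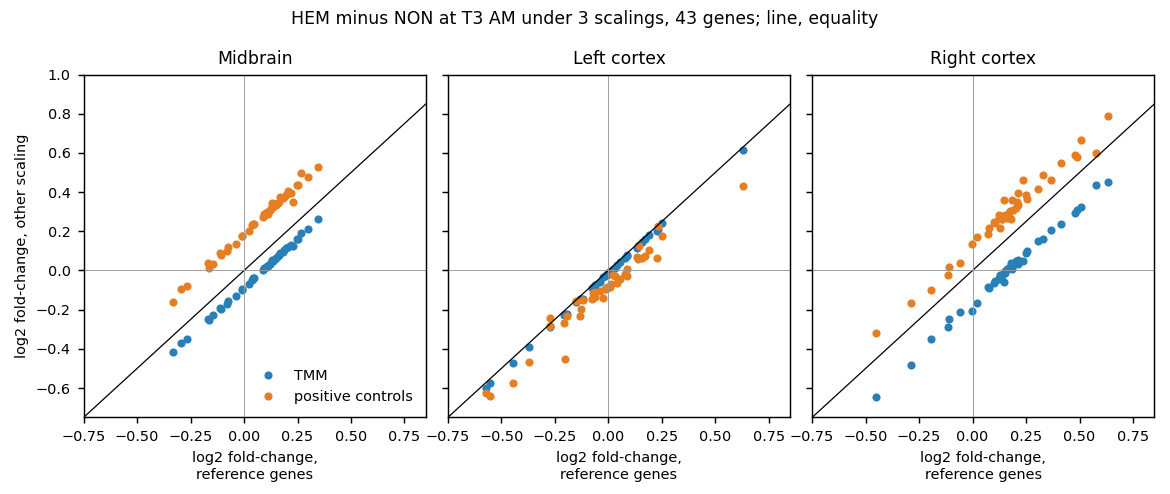
Log2 fold-change of HEM against NON at T3 AM of each of the 43 genes with TMM (blue) or positive control probes (orange) on the vertical axis, against the value with the reference genes on the horizontal axis. Blue points lie under the line of equality in the midbrain and right cortex and orange points above it, so the panel median of 0.11 in the midbrain became 0.02 or 0.30.

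The regions were compared in a fit of the 21 pools alone. No gene (0%) had a different HEM effect in the left and the right cortex, the lowest adjusted p being 0.0768, and 4 genes were under an unadjusted p of 0.05. Lepr-b differed by -0.97 (SE 0.30) between the left and right cortex. No gene (0%) differed between the midbrain and the mean of the cortices (1 at an unadjusted p under 0.05), the lowest adjusted p being 0.469, for Npy. With the pool number as a replicate block, which takes the mice into account, both counts were again 0.

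The same genotypes were then compared at other collection times and stages. T2 is the stage of diabetes onset, and its AM pools were of younger mice, 127 to 271 days old in HEM and 130 to 286 days in NON, so age and stage cannot be told apart in that comparison. The T3 PM mice were 402 to 404 days old in HEM and 401 to 406 in NON, and 1 of 2 HEM and 2 of 3 NON pools were labelled previously diabetic. No gene (0%) had a HEM effect that differed from that of T2 AM (2 HEM and 2 NON pools) in any region, in edgeR's test. An unadjusted p under 0.05 was found for 3, 3 and 12 genes in the midbrain, left and right cortex. Midbrain Pdk1 at T2 AM had 8043 and 7530 normalised counts in HEM and 5756 and 6272 in NON (adjusted p = 0.0768 by edgeR). Pde3b had 2735 and 2392 in HEM and 2567 and 2454 in NON there. Jak2 had 16045 and 14094 in HEM and 15296 and 14647 in NON, so both overlapped. Against T3 PM (2 HEM and 3 NON pools), none differed in the midbrain (2 at an unadjusted p under 0.05) or left cortex (5). Between HEM and NON at T3 PM itself, 1 left cortex gene (2.33%) passed, Ramp1, lower in HEM (adjusted p = 0.0361 by edgeR). None passed there in the midbrain or right cortex. The midbrain log2 fold-changes of Pde3b, Pdk1 and Jak2 at T3 PM were -0.0013, 0.07 and 0.04, next to 0.25, 0.35 and 0.25 at T3 AM, with adjusted p of 0.302, 0.435 and 0.435 for the differences by edgeR. In the right cortex 1 gene (2.33%) differed, and it was Lepr-b, by 1.41 (SE 0.37, adjusted p = 0.0237 by edgeR). Its normalised counts there were 45.3, 56.5, 55.9 and 76.6 in the T3 AM HEM pools and 44.7, 55.3 and 33.1 in the T3 AM NON pools. At T3 PM they were 37.8 and 25.7 in HEM and 81.1, 69.1 and 43.2 in NON, so that all PM HEM pools lay below the PM NON pools. Raw counts behind these values were 9 to 68. The call was lost with the positive control probes.

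HOM pools of T3 AM (5 in each region, 400 to 407 days old) were set against the HEM pools. Of the HOM pools 4 of 5 were labelled previously diabetic, against 2 of 4 HEM and 1 of 3 NON pools, and the part of previous diabetes in the values below was not tested. In the midbrain 1 gene (2.33%) differed, Pik3r1, whose HOM counts of 6245 to 6612 lay below all 4 HEM pools, with a log2 difference of -0.18 (SE 0.05, adjusted p = 0.0441 by edgeR). With TMM 7 genes differed there and with the positive control probes none. No gene (0%) differed between HOM and HEM in the left cortex (5 at an unadjusted p under 0.05) or right cortex (2), by the same test, but 33 genes of the left cortex, all higher in HOM, did with the positive control probes. HOM and HEM share the NON pools as controls, so a low or high NON pool moves both fold-changes against NON alike. The agreement that this alone would bring was not computed. Side by side, the midbrain log2 fold-change against NON was 0.14 in HOM and 0.25 in HEM for Pde3b, 0.11 and 0.35 for Pdk1, 0.20 and 0.25 for Jak2, 0.20 and 0.19 for Adrbk1 and -0.03 and 0.14 for Pik3r1. In the right cortex Pik3r1 was higher in HOM than in these same NON pools by 0.18 (SE 0.06, adjusted p = 0.0152 by edgeR), next to 0.26 in HEM. Against NON, 12 midbrain genes (27.9%), 15 right cortex genes (34.9%) and no left cortex gene (0%; 7 at an unadjusted p under 0.05) passed the test in HOM, all higher, next to 6, 1 and 0 in HEM.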

How the data were processed

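RNA from brain regions of L44 mice was counted on the nCounter platform, in which a barcoded probe is counted for each mRNA. The authors deposited raw counts per probe and pool, without normalisation, and pooled RNA of the same genotype and collection time before the assay; a genome build and probe sequences are not given in the sources used here. Pools were grouped by their labels; a legend of the study counts fewer T3 AM pools than the labels, and all labelled pools were used. Nothing was pooled or imputed here. The 12 pools of the series without a collection time were left out.

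Each region was fitted in edgeR 4.0.16 (R 4.3.3) with 1 coefficient for each combination of stage, genotype and time of day (45 or 46 pools, 17 groups), library sizes from the 3 reference genes (geometric mean), a prior count of 0.125, the quasi-likelihood test and Benjamini-Hochberg adjustment over 43 genes. Regions were compared in a fit of the 21 pools. Pool counts of different samples of a group were checked for duplicates in 27 pairs, and none agreed within sampling noise (chi-square per degree of freedom at least 5.77). NanoStringDiff, the study's tool, was not used here. DESeq2 1.42.0 was an alternative. Figures were drawn with matplotlib 3.10.9 in Python 3.11.15.

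The comparison, gene lists and tests were chosen with earlier results of these data known. Genes named are, per region, the 10 with the smallest p, c-Fos, Calcr, Calcr-1b, Amylin, Ins1, Pomc, Cart, Npy and Socs3, and those without overlap in the same direction in all 3 regions. Replicates are pools of separate mice. HEM and NON share no pool number, so genotypes are not paired; between regions, pools with the same number and genotype share mice, and the correlations of their deviations from the group means ranged from -0.60 to 0.88 over 30 genes. RefSeq (GRCm38.p6) supplied names and promoter windows.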

Additional observations from a re-analysis of the deposited data

Results flagged for a closer look

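In 5 of 69 sets of 4 HEM pools, 1 pool stood apart from the other 3 by Dixon's test at the 95% level, where chance flags about 1 set in 20. Pde3b in the midbrain was 2641 in HEM pool 1 against 2412 to 2423 in the others, and Calcr there was 530 in the same pool against 790 to 830. Irs2 in the left cortex was 3102 in HEM pool 6 against 2342 to 2410. In the right cortex, Irs1 was 406 in HEM pool 1 against 314 to 328, and Socs3 was 58.4 in HEM pool 2/3 against 81.2 to 85.6. Without HEM pool 1, Pde3b in the midbrain was still past the edgeR threshold.

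The HEM effect on Lepr-b in the right cortex differed between AM and PM at T3, by 1.41 on the log2 scale in edgeR's interaction test. The raw counts behind the T3 AM values were 19 to 68. At T3 PM they were 9 to 26 in HEM and 16 to 51 in NON. The difference did not pass the test with the positive control probes.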

How the results depend on the processing

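Over 22 alternatives, 1094 of the recomputed values of 52 gene and region results kept their direction and 45 turned, genes at or under background in all pools of a region being left out. In 984 both direction and side of the threshold were kept, 66 lost a call and 44 gained one. For Pde3b, Pdk1 and Jak2 in the midbrain, the adjusted p ranged over 0.00067 to 0.129, 0.0051 to 0.129 and 0.0029 to 0.190, and for Pik3r1 in the right cortex over 0.00086 to 0.954, without a change of direction. The cause of the changes below was not tested. Few pools and low counts (midbrain Amylin and Ins1, Calcr in the cortices) limit these values.

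The number of midbrain genes past the threshold, 6 in the report, became 0 with TMM, DESeq2 size factors, previous diabetes as a covariate, without B2m and with a fold limit of 0.58 or 1. It became 26 with the positive control probes, 11 and 2 without each of the other two reference genes, 2 with both groups fitted alone, 1 for previously diabetic HEM against all NON, and 3 after adjustment over the 3 regions together. With 1 pool left out it was 2 to 10. In the left cortex (0 in the report) it became 1 without B2m and 1 after subtraction of the negative control mean, and it was 0 to 0 with 1 pool left out. In the right cortex (1 in the report) it became 0 with TMM, DESeq2 size factors, positive control probes, without B2m, both groups fitted alone, the diabetes covariate, never diabetic pools and either fold limit. It became 12 without one of the other reference genes, 5 with the DESeq2 Wald test and 12 for previously diabetic HEM, and was 0 to 10 with 1 pool left out. HOM against HEM gave 7 midbrain genes with TMM, and 0 midbrain and 33 left cortex genes with the positive control probes, and the right cortex difference between AM and PM gave 0 with these. With pool number as a replicate block, the differences between regions stayed at 0 genes.

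Directions turned as follows, on the log2 scale. With the positive control probes, midbrain Calcr was 0.17, Calcr-1b 0.077, Amylin 0.039 and Socs3 0.013, left cortex Npy was -0.082 and right cortex c-Fos 0.019. With TMM, left cortex Npy was -0.0095, and right cortex Npy was -0.023, Pik3ca -0.0021 and Socs3 -0.015. With DESeq2 size factors these 3 right cortex values were -0.038, -0.019 and -0.028. Without a reference gene, midbrain Calcr was 0.033, and left cortex Npy was -0.042 and Socs3 0.0044. For previously diabetic HEM, midbrain Calcr was 0.10 and Amylin 0.17, and left cortex Calcr was 0.089 and Socs3 0.10. For never diabetic pools, left cortex Calcr-1b was -0.97 and Npy -0.026, and right cortex c-Fos was 0.00031 and Calcr -0.071. With the diabetes covariate, the value of Npy, left cortex, was -0.0045.

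With 1 pool left out, c-Fos was -0.018 to 0.55 in the midbrain, -0.51 to 0.13 for left cortex pools and -0.33 to 0.095 for right cortex pools. In the midbrain, Calcr was -0.073 to 0.12, Amylin -0.38 to 0.030, Socs3 -0.30 to 0.013 and Pomc -0.048 to 0.32. In the left cortex, Calcr was -0.54 to 0.21, Socs3 -0.14 to 0.062, Pomc -0.0080 to 0.47, Calcr-1b -0.016 to 0.48, Cart -0.60 to 0.033 and Npy -0.013 to 0.031.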
